A study of Mus musculus with 2 samples.

Results

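The genes described here serve the loading of peptides onto major histocompatibility complex (MHC) class I molecules. They are B2m, H2-M3, Tap1, Tap2, Tapbp, Erap1, Nlrc5, Calr and Pdia3, 9 of the 19935 genes that had a probe set annotated to exactly 1 gene. They were chosen by name, and where a gene had several such probe sets, the one with the highest mean log2 intensity stands for it. Transcripts were measured in dendritic cells (DCs), a type of antigen-presenting cell. The DCs were sorted by flow cytometry from the spleen of C57BL/6 mice, wild type and 8 weeks old. One sample was cultured with IL-27, a cytokine of the IL-12 family, and the other with vehicle (medium). Treatment lasted "ON" by the label, and the number of mice or cultures behind a sample is not stated in the labels. Each condition was read on 1 array, so no difference below could be checked against replicates, and none carries a test or an error.

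MHC class I molecules show peptides from inside the cell to CD8+ T cells, and DCs also load them with peptides from material they have taken up. Peptides cut by the proteasome enter the endoplasmic reticulum through the transporter TAP, a dimer of the Tap1 and Tap2 products. There they are trimmed by the aminopeptidase Erap1 and offered to a class I heavy chain, paired with beta-2-microglobulin, inside a loading complex of tapasin (Tapbp), calreticulin (Calr) and the thiol oxidoreductase ERp57 (Pdia3). Nlrc5 is the nuclear transactivator of class I genes, and interferons raise many genes of the pathway in many cells. IL-27 signals through a cytokine receptor with JAK kinases.

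The promoter windows of 4 genes are shown first. They hold letter matches to elements through which cytokines or endoplasmic reticulum stress are known to act on genes. B2m had the highest difference of the 9 genes, Erap1 and H2-M3 the lowest, and Calr one close to 0. Each window runs from 220 bases before to 30 after the annotated start, read 5′ to 3′ on the gene's own strand, from RefSeq (GRCm38.p6). Capitals mark motif matches.
B2m, chr2:122147467-122147716, plus strand: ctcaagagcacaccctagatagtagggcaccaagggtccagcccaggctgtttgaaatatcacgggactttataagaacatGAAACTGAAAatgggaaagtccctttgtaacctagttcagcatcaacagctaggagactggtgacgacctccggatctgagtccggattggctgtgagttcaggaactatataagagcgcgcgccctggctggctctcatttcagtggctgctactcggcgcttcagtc
Erap1, chr13:74639633-74639882, plus strand: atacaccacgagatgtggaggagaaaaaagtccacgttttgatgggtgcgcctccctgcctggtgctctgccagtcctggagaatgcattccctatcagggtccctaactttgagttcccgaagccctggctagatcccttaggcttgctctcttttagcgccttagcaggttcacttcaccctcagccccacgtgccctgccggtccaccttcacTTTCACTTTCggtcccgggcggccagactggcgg
H2-M3, chr17:37270014-37270263, plus strand: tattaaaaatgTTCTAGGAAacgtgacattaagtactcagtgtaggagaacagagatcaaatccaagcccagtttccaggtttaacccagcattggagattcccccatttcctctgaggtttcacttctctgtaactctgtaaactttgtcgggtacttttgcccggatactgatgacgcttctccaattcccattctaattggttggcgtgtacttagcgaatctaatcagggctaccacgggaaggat
Calr, chr8:84846902-84847151, minus strand: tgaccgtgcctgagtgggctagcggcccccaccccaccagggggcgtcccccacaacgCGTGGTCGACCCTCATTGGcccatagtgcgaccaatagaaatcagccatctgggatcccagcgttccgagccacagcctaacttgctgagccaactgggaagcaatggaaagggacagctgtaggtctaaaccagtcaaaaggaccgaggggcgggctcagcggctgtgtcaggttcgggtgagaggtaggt
The capitals in B2m are GAAACTGAAA, a match to the interferon-stimulated response element searched as GAAANNGAAA, which begins 139 bases before the start. In Erap1 the same motif lies on the other strand as TTTCACTTTC and spans the start, with 4 bases before it and 6 past it. The capitals in H2-M3 are TTCTAGGAA, a match to the gamma-activated site searched as TTCNNNGAA, the element that STAT dimers bind, and it begins 209 bases before the start. In Calr they are CGTGGTCGACCCTCATTGG, the endoplasmic reticulum stress response element searched as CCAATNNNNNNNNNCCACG, on the other strand and beginning 162 bases before the start. Both strands were searched, and the matches shown do not overlap each other. Of all 32851 promoter windows of this length, 2.85% held the interferon element, 6.87% the gamma-activated site and 0.113% the stress element. A window was matched for 7 of the 9 genes. The interferon element was found in 2 of these 7, the gamma-activated site in 1 and the stress element in 1. A match is a run of letters and not a shown binding site.

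The deposited values were 1 linear intensity per probe set and array. Their median over 28815 probe sets was 98.9 on the IL-27 array and 92.4 on the vehicle array, and their 75th percentile 215 and 267, so the arrays did not share 1 distribution. A scale for background came from 1027 olfactory receptor genes, which DCs are not known to use, with 95th percentiles of 129 (IL-27) and 77.3 (vehicle), called the olfactory limit below. Differences are log2 IL-27 minus log2 vehicle. A gene counted as lower or higher where this was 1 or more in size, that is 2-fold, and its brighter value was no less than 96.2, the median intensity of both arrays, called the level minimum. By this rule 7.36% of the 19935 genes were lower and 0.848% higher, and higher genes made up 10.3% of the calls. That share was 20.6% after quantile normalization and 36.5% after the dependence of the difference on level had been removed by lowess. The median difference was 0.042 over all genes and -0.34 over the 11140 genes above the level minimum. The differences of brighter genes are therefore given beside those of the 1000 genes nearest in mean level.

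Most class I peptide-loading genes differed little between the arrays. Of the 9, Erap1 was lower with IL-27 by the 2-fold rule, 0 were higher and 8 were neither. All 9 lay above the olfactory limit on both arrays and above the level minimum. One lower gene of 9 stands beside 7.36% lower among all genes and 13.2% lower among genes above the level minimum, and 0 higher beside 0.848% and 1.52%. With a 1.5-fold rule 2 of the 9 were lower, beside 18.8% of all genes, and 0 higher, beside 3.28%. Of the 11140 genes above the level minimum, 3753 were lower and 653 higher by that rule. The differences were below 0 in 8 genes and above 0 in B2m, with a median of -0.39. Against the genes nearest in level, 5 of the 9 lay above the neighbours' median and 4 below it, and all 9 lay between the 5th and 95th percentile of their neighbours. With the level trend removed the median became 0.053, with 5 differences above 0 and 4 below. None of the 9 was then called, beside 2.98% of all genes lower and 1.71% higher. These were 594 and 341 of the 11140 genes above the level minimum.

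**Figure D1:**
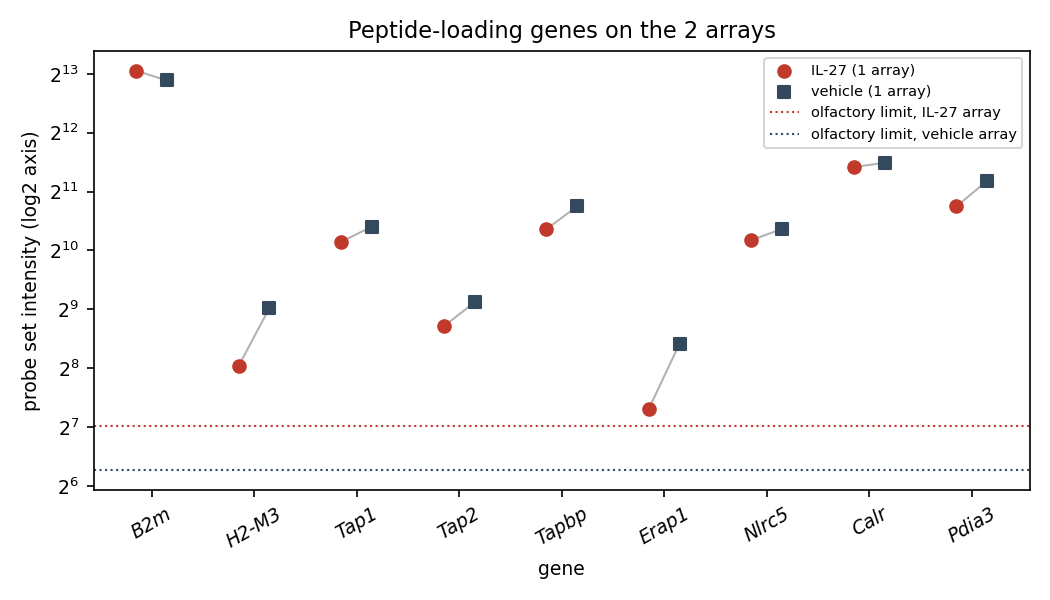
Intensity of each gene's probe set (log2 axis) on the IL-27 array (circles) and the vehicle array (squares), 1 array each, with the olfactory limits of 129 and 77.3 as dotted lines. The widest gaps are those of Erap1 (159 with IL-27, 342 with vehicle) and H2-M3 (263 and 521), while B2m (8497 and 7573) is the gene whose IL-27 value is above its vehicle value.

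B2m encodes beta-2-microglobulin, the light chain that every classical class I molecule needs to fold and reach the surface. Its probe set (10475414) had an intensity of 8497 with IL-27 and 7573 with vehicle, a log2 difference of 0.17 or 1.12-fold. Among the 1000 genes nearest in level the median difference was -0.26, and 18.6% of them lay above B2m. B2m thus had a value slightly above vehicle, whereas most of these 1000 neighbours had one below vehicle. Its difference stayed between 0.067 and 0.17 under all settings tried. The gene lies at the bright end of the arrays, where the fitted trend (0.0059) and the neighbours' median differ. The neighbours therefore do not settle how genes of its own level differed.

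H2-M3 encodes a non-classical class I heavy chain that presents N-formylated peptides, such as those of bacteria and mitochondria. It had 263 with IL-27 and 521 with vehicle (probe set 10445119), a difference of -0.99 or 1.98-fold lower, just short of the 2-fold rule. The rule was passed after median centring (-1.08). Of its neighbours in level, 20.2% had a difference as low or lower, and their median was -0.54. With the level trend removed H2-M3 stood at -0.47. Class I genes are alike in sequence, and cross-hybridisation of its probes with other heavy chains was not tested.

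Tap1 and Tap2 encode the subunits of the peptide transporter. Tap1 (10444244) had 1134 with IL-27 and 1357 with vehicle, a difference of -0.26, or 0.053 with the level trend removed. Tap2 (10444268) had 419 and 556, a difference of -0.41, or 0.073 with the trend removed. Both subunits thus sat slightly lower on the IL-27 array as deposited and slightly higher once level was taken into account. The neighbours in level had medians of -0.32 for Tap1 and -0.51 for Tap2, and 68.2% and 65.0% of them had a difference at least as large in size. The subunits' differences were 0.15 apart. For scale, among 622 genes with more than 1 probe set above the level minimum, the differences of the brightest pair of probe sets were a median of 0.14 and, at the 90th percentile, 0.59 apart.

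Tapbp encodes tapasin, which tethers class I molecules to the transporter and edits their peptides. Its probe set (10444068) had 1314 with IL-27 and 1720 with vehicle, a difference of -0.39 (1.31-fold lower). Its neighbours' median was -0.29 and 41.1% of them lay as low or lower. Another 2 probe sets were annotated to Tapbp together with a ribosomal protein gene and were not used. Tapasin was in the middle of genes of its level.

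Erap1 encodes the aminopeptidase that trims the N-terminal ends of peptides to the length that class I molecules hold. It had 159 with IL-27 and 342 with vehicle (10406205), a difference of -1.11 or 2.16-fold lower. It is the gene among the 9 past the 2-fold rule. On the IL-27 array it lay at 1.23 times the olfactory limit, the smallest margin of the 9 genes. In its range of level, 15.6% of genes had a difference as low or lower, and 19.8% had one of -1 or below. The difference was -0.83 after quantile normalization and -0.61 with the level trend removed, short of 2-fold in both. Its promoter window is the one above in which the match to the interferon element spans the start, and a link to the difference was not tested.

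**Figure D2:**
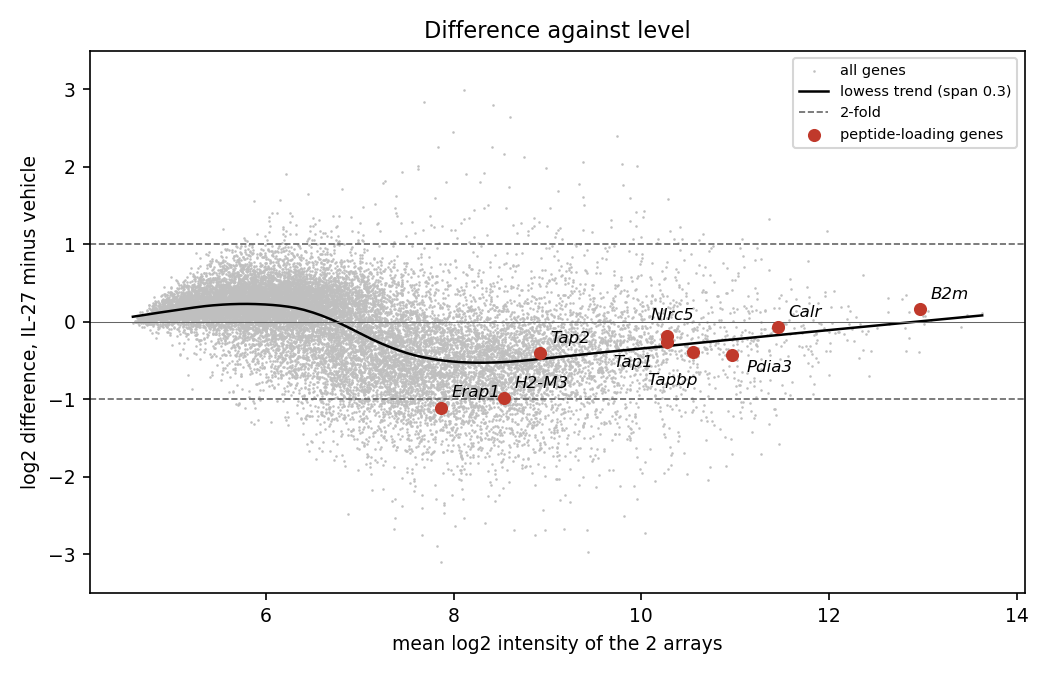
Log2 difference (IL-27 minus vehicle) against mean log2 intensity for 19935 genes (grey), with the 9 peptide-loading genes in red, the lowess trend as a line and 2-fold as dashed lines. Erap1 (-1.11) and H2-M3 (-0.99) lie below the trend, and the other genes lie nearer to it. The signs of Tap1, Tap2, Nlrc5 and Calr turn to positive when the trend is subtracted.

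Calr encodes calreticulin, the lectin chaperone that holds the class I heavy chain in the loading complex. It had 2736 with IL-27 and 2874 with vehicle (10580219), a difference of -0.071, or 0.10 with the level trend removed and 0.027 after quantile normalization. Of its neighbours in level 92.0% had a difference at least as large in size. Calr thus sat at nearly the same level on both arrays. Pdia3 encodes ERp57, which is disulphide-bonded to tapasin. It had 1722 with IL-27 and 2323 with vehicle (10475335), a difference of -0.43 or 1.35-fold lower, with a neighbours' median of -0.28. These partners of one complex, with Tapbp, therefore spanned -0.071 to -0.43, and 36.1% of the genes near Pdia3 in level lay as low or lower.

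Nlrc5, a protein of the NLR family, drives transcription of class I heavy chains, B2m, Tap1 and immunoproteasome genes. Its brightest probe set (10574102) had 1157 with IL-27 and 1320 with vehicle, a difference of -0.19, or 0.12 with the level trend removed. Nlrc5 was the only one of the 9 genes with several probe sets, 19 in all, and each lay above the olfactory limit on both arrays. Their intensities had a lowest, median and highest value of 138, 449 and 1266 on the IL-27 array, and of 202, 493 and 1320 on the vehicle array. The difference was below 0 in 16 probe sets and above 0 in 3, with a lowest value of -0.60, a median of -0.27 and a highest of 0.40. None reached 2-fold, and 1 was at least 1.5-fold lower.

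The bright probe sets of Nlrc5 did not move together. Probe set 10574100, with a mean level next to that of 10574102, had 1266 with IL-27 and 962 with vehicle, a difference of 0.40 against -0.19. Probe set 10574098 had 951 and 882 (0.11), and 10574141 had 550 and 470 (0.23). The brightest pair was 0.59 apart, about the 90th percentile of that gap among genes with several probe sets. The lowest difference, -0.60, was that of 10574163, with 189 with IL-27 and 287 with vehicle. With the level trend removed 16 of the 19 were above 0 and 3 below, with a median of 0.15, so the direction for this gene turns with the treatment of level. Which exons the probe sets read is not given in the sources used here.

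**Figure D3:**
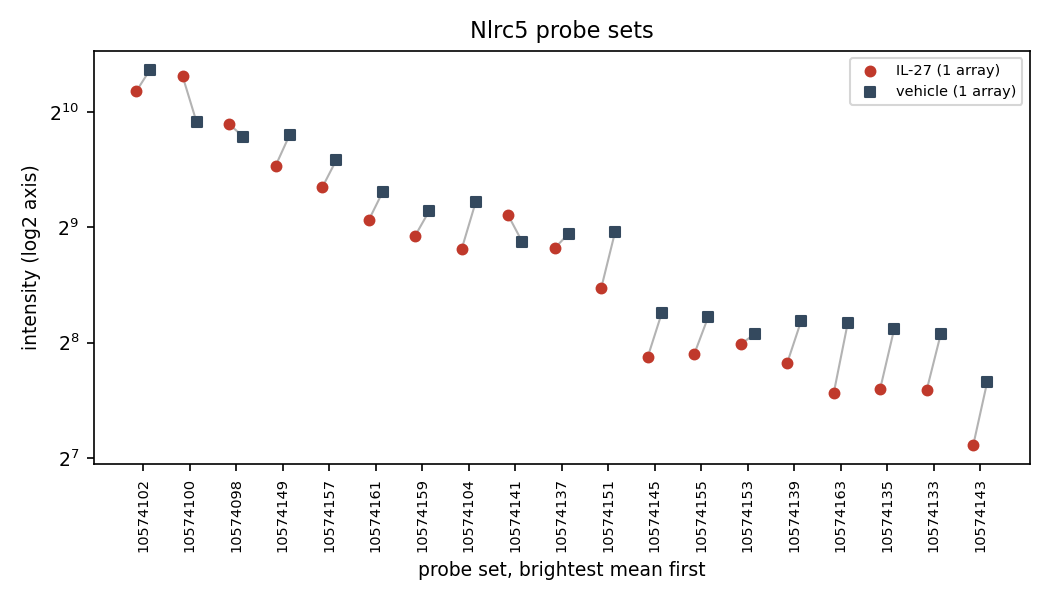
Intensities (log2 axis) of the 19 Nlrc5 probe sets on the IL-27 array (circles) and the vehicle array (squares), ordered by mean level. The IL-27 value is above the vehicle value in 3 probe sets (10574100, 10574098 and 10574141) and below it in 16, and with the level trend removed 16 of the 19 differences are above 0.

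The genes around the peptide-loading step were read from 6 further lists. Of 64 genes measured, 59 lay above the level minimum, of which 13 were lower and 0 higher, beside 13.2% lower and 1.52% higher among all genes above that level. With the level trend removed 5 of the 59 were lower and 0 higher, counting Mr1 at its deposited value. In that setting 594 of the 11140 genes above the level minimum were lower and 341 higher. Heavy chains and other partners of B2m, 10 of them above the level minimum, held 5 of the 13 lower as deposited. With the trend removed they held 3 of the 5. Cd1d1, which presents lipids, had 142 with IL-27 and 556 with vehicle, 3.92-fold lower. Hfe, a regulator of iron uptake, had 169 and 642, 3.80-fold lower. Mr1, which presents vitamin metabolites to MAIT cells, lay within the olfactory range with IL-27 (95.1) and had 279 with vehicle, at least 2.16-fold lower against the limit. Cd1d1 and Hfe stayed past 2-fold with the level trend removed, at -1.45 and -1.40, whereas B2m, their shared light chain, was at 0.16. The list's median was 0.028 over its 14 measured genes, and -0.022 over the same 14 with the level trend removed. Of these 14, 4 lay under the olfactory limit on each array. Over the 10 above the level minimum the median was -0.99 as deposited. With the trend removed the differences of these 10 ran from -1.45 to 0.63. H2-K1, H2-D1 and H2-T23 were covered only by probe sets shared with other genes and are not given.

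Markers of macrophages and of DCs lay further below 0 than the peptide-loading genes. Among 16 markers of macrophages and monocytes, the rule called 12 lower and 0 higher, beside the 13.2% and 1.52% above. Their median was -1.56 (-1.21, with 11 lower, once the level trend was removed), with summed intensities of 19664 with IL-27 and 42009 with vehicle. With the trend removed 594 of the 11140 genes above the level minimum were lower and 341 higher. Among 16 markers of DCs the rule called 8 lower, at a median of -0.98 (-0.73, with 6 lower, trend removed) and with sums of 11032 and 24126. Itgax (CD11c) had 1829 with IL-27 and 3371 with vehicle, and Flt3 851 and 1796. Not every DC marker was lower. Zbtb46 had 340 and 344, and Irf4, the 1 DC marker above 0, had 698 and 529. Of 8 B cell markers measured 2 were lower (sums of 1347 and 2288), of 7 T cell markers 0 (632 and 579), of 8 NK cell markers 2 (855 and 1204), of 6 neutrophil markers 2 (475 and 612) and of 3 erythroid markers 0 (265 and 277). With the trend removed 1 B cell marker, 0 NK cell markers and 2 neutrophil markers were lower. The medians were -0.61 for B cell, 0.096 for T cell, 0.15 for NK cell, 0.30 for neutrophil and -0.065 for erythroid markers. Over the markers above the level minimum they were, in the same order, -0.73 (7 genes), 0.48 (3), -0.40 (4), -1.08 (3) and -0.18 (1). The olfactory receptor genes themselves had a median difference of 0.46. Of the 6 neutrophil markers 3 were under the olfactory limit on each array, and the 2 lower ones were under it with IL-27. No marker was at 0, as the scale has no 0. Under the olfactory limit on each array were 4 of 7 T cell markers, among them Cd3d and Cd3g, and 4 of 8 NK cell markers, among them Ncr1 and Klrb1c. Above it on both were 1 T cell marker, Cd5, and 2 NK cell markers, Klrd1 and Klrk1. In a bulk sample fewer cells of a type and less RNA per cell cannot be told apart, and the part of these marker differences in the results above was not tested.

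The proteasome makes the peptides, and its interferon-inducible subunits Psmb8 and Psmb9 are encoded beside the transporter. On chromosome 17 the genes follow each other in the order Psmb9, Tap1, Psmb8, Tap2. Psmb9 had 556 with IL-27 and 853 with vehicle, a difference of -0.62, and Psmb8 had 436 and 741, a difference of -0.76. Both lay further below 0 than the adjoining Tap1 (-0.26) and Tap2 (-0.41), by less than the 0.59 that separated probe sets of 1 gene at the 90th percentile, and stood at -0.20 and -0.31 with the level trend removed. Psmb10, the remaining inducible subunit, had 264 and 572, 2.17-fold lower, or -0.60 on the log2 scale with the trend removed. The standard subunits Psmb5, Psmb6 and Psmb7 differed by -0.18, 0.15 and -0.34. Over the 9 genes of this list 1 was lower and 0 higher, with a median of -0.34, or 0.046 with the level trend removed.

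Other chaperones and folding enzymes of the endoplasmic reticulum had differences below 0 in 14 of 14 genes, and 3 were lower by the rule. Their median was -0.48, beside -0.34 for all genes above the level minimum. Once the level trend was taken out it was -0.16, and some of the 14 were above 0. Pdia4, a relative of Pdia3, had 476 with IL-27 and 1121 with vehicle, 2.35-fold lower by its brighter probe set, the other being under the olfactory limit on both arrays (69.8 and 50.2). Sdf2l1, a stress-induced component of chaperone complexes, had 541 and 1256, 2.32-fold lower. Ganab, the glucosidase subunit that readies glycans for calreticulin and calnexin, had 389 and 813, 2.09-fold lower. With the level trend removed none of the 3 was past 2-fold. Calnexin (Canx), the membrane-bound counterpart of calreticulin, had 3032 and 3353 (-0.14), near to Calr at -0.071. Tapbpl, which encodes the tapasin relative TAPBPR, differed by -0.40, beside -0.39 for Tapbp.

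Among 5 other peptidases, Lap3, a cytosolic leucine aminopeptidase, was lower, with 351 with IL-27 and 995 with vehicle (2.84-fold, or -1.06 with the level trend removed). Blmh and Tpp2, which also cut peptides in the cytosol, differed by -0.55 and -0.41. Npepps and Thop1, also cytosolic peptidases, differed by -0.055 and -0.11, so Lap3 was the 1 gene of this list past the rule.

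Of 11 other regulators of class I transcription 2 were lower, with a list median of -0.30 (0.078 with the level trend removed). Ciita, the transactivator of class II genes and a relative of Nlrc5, had 435 with IL-27 and 1383 with vehicle, 3.18-fold lower, and -1.28 with the level trend removed. Nlrc5 itself differed by -0.19, so the related transactivators had unequal differences on these arrays. Irf2 had 352 and 709, 2.01-fold lower (-0.53 with the trend removed), and Irf1, a factor that interferon induces and that acts on class I promoters, had 941 and 858 (0.13). Rfx5, a subunit of the complex that binds both classes of promoter, had 195 and 357, a difference of -0.87.

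Genes of cross-presentation, by which DCs load taken-up antigen on class I molecules, were below 0 in 11 of 11, and 1 was lower. Their median was -0.43, beside -0.34 for all genes above the level minimum. With the level trend removed it was -0.043, and some of the 11 were above 0. That gene was Rac2, a GTPase of the oxidase that limits acidification of the phagosome, with 909 with IL-27 and 2002 with vehicle, 2.20-fold lower (-0.84 with the trend removed). Cybb, the oxidase's catalytic chain, had 1488 and 2836, a difference of -0.93. Wdfy4, needed for cross-presentation of cell-associated antigen in mice, differed by -0.57 in its brighter probe set and by -0.99 in the other.

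**Figure D4:**
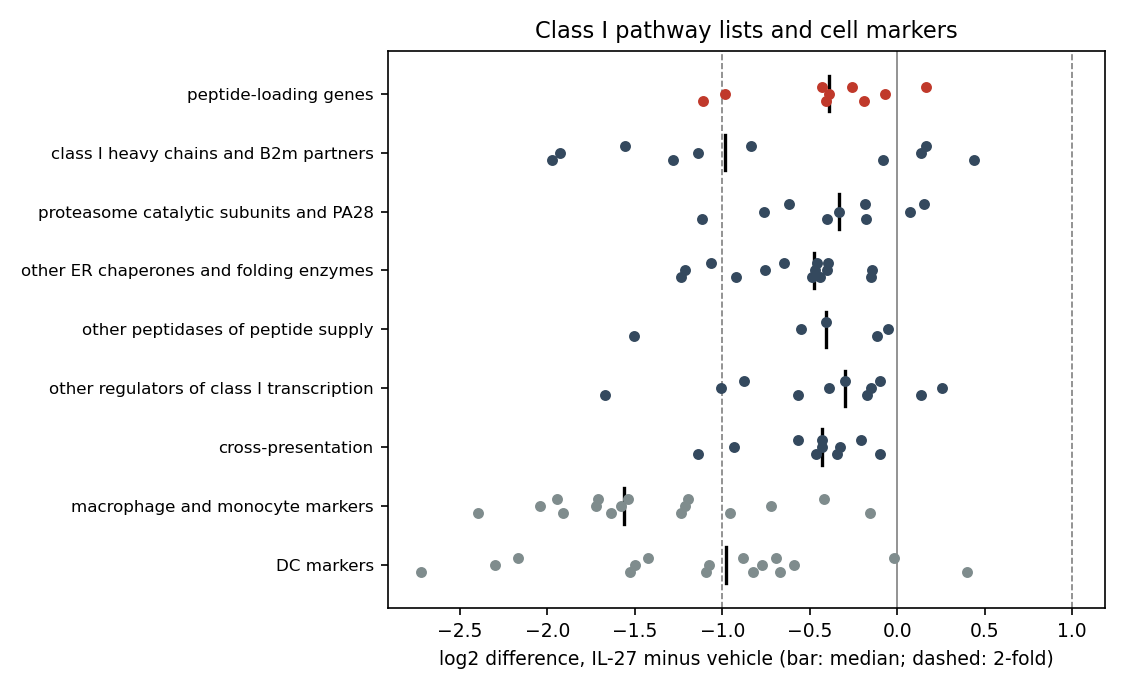
Log2 difference (IL-27 minus vehicle) of the genes above the level minimum in the peptide-loading set (red, median -0.39), 6 related lists (blue) and 2 marker lists (grey), with medians as bars and 2-fold as dashed lines. No gene of the peptide-loading set or the 6 lists reaches 1 on the right, and the macrophage and DC markers lie farther left, with medians of -1.56 and -0.98.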

How the data were processed

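One array per condition was deposited, for 1 IL-27 sample and 1 vehicle sample. The authors deposited 1 linear intensity per probe set, and how these were background-corrected, summarized and normalized is not given in the sources used here. The genome build was mm8, per the submitters' processing notes. Of 28815 probe sets, 21780 had 1 gene in the platform annotation, 1605 had several and 5430 are unnamed here. Gene IDs of 21689 matched RefSeq (GRCm38.p6), which changed 0 symbols.

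Log2 was taken with no pseudocount (Python 3.11.15, numpy 2.4.6, pandas 2.3.3), and the level trend was a robust lowess of difference on mean level over all genes, span 0.3 (statsmodels 0.14.6). Calls and trend removal were tested on simulated data, with shifts larger than 2-fold and an assumed noise. The simulation gives no error rate for calls on these arrays. Alternatives were quantile normalization, median centring, trend removal, an offset of 16, the mean of probe sets, a floor at the olfactory limit, other level filters and a 1.5-fold rule. The number of arrays limits the precision. The members and lists were chosen with earlier results of these data known. Named were all 9 members, the 3 genes of each related list with the largest absolute difference above the level minimum, 10 genes whatever their values (4 of them not reported here) and a few markers. Psmb5 to Psmb7, Npepps, Thop1, Zbtb46, Irf4, Cd5, Klrd1 and Klrk1 were added as examples after their values were seen.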

Additional observations from a re-analysis of the deposited data

How the results depend on the processing

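With 1 array per condition, no setting leaves out a replicate, and no paired analysis was possible. The number of lower genes among the 9 was 1 as deposited. It was 0 after quantile normalization and 0 with the level trend removed, where Erap1 had -0.83 and -0.61. It was 2 after median centring, where 1869 of all 19935 genes were lower. With a 1.5-fold rule, which 18.8% of all genes passed downward (3753 of the 11140 above the level minimum), it was also 2. H2-M3 was the added gene in each. No gene of the 9 was higher in any setting. Their median was -0.087 after quantile normalization and 0.053 with the level trend removed, in place of -0.39. The differences of B2m stayed above 0 and those of Erap1, H2-M3, Tapbp and Pdia3 below 0 in all settings, whereas Tap1, Tap2, Nlrc5 and Calr turned above 0 with the level trend removed and Calr also after quantile normalization (0.027). Over all 19935 genes the counts were 1468 lower and 169 higher as deposited. They were 906 and 235 after quantile normalization, 1869 and 132 after median centring, and 594 and 341 with the trend removed. With the 1.5-fold rule they were 3753 and 653, and above the 75th percentile of level 1194 and 101. The cause of these shifts was not tested. The olfactory floor and the offset of 16 left Erap1 past 2-fold, at -1.11 and -1.04.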
